A study of Canis lupus familiaris with 9 samples.

Results

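Fatty acids reach a muscle fibre along a short chain of proteins, and 8 genes of that chain were followed here in skeletal muscle of dogs: LPL, LMF1, GPIHBP1, CD36, SLC27A1, SLC27A4, FABP3 and VLDLR. They were chosen by name, as genes of fatty acid uptake and of lipoprotein lipase. Among the 15115 genes that the array names by a single symbol, these 8 were represented by 13 probe sets, short groups of oligonucleotides that read the same transcript. For a gene with several, the probe set of highest average value stands for it, and the others are reported beside it.

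Lipoprotein lipase, the LPL protein, splits triglyceride carried by chylomicrons and very low density lipoproteins into fatty acids at the wall of capillaries. It folds in the endoplasmic reticulum with the help of lipase maturation factor 1 (LMF1) and is carried across the endothelial cell by GPIHBP1, which then holds it on the capillary surface. VLDLR binds triglyceride-rich lipoproteins, CD36 and the transport proteins SLC27A1 (FATP1) and SLC27A4 (FATP4) take fatty acids into the cell, and FABP3 binds them in the cytosol of heart and skeletal muscle fibres.

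Muscle came from 9 intact female beagles, 4 years old, at 24 weeks of a feeding trial in which all dogs ate the same commercial diet. The 5 ad libitum dogs (2, 5, 6, 7 and 8) ate without restriction. The 4 control dogs (1, 3, 4 and 9) were given the amount that held their body weight at its starting level. Dogs were assigned to the groups at random, each gave 1 array, and muscle was taken after an overnight fast. The labels name neither the muscle nor a batch, and whole tissue was used, so fewer cells of a type and less RNA per cell cannot be told apart.

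Values are GCRMA values, taken as log2, from 0.65 to 16.61 over all probe sets. A probe set was tested if it lay above 4 on at least 4 arrays, which 18394 probe sets did. Precision is limited by the 9 arrays, and a typical (median) standard error of a difference was 0.20. Pairs of arrays correlated at 0.934 to 0.981 across the tested probe sets, a figure over genes, which are not independent replicates. The labelled tissue was borne out by its markers: the mean of 11 contractile and metabolic genes of skeletal muscle, ACTA1, TTN and MB among them, lay between 14.73 and 14.94 in all 9 dogs.

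None of the 8 genes passed the test for a difference between the groups. Of the 7 whose representative probe set could be tested, 4 had higher and 3 had lower means in ad libitum dogs, with a median log2 difference of 0.0016 beside -0.0082 over all tested probe sets. By the linear model of limma, with p-values adjusted by Benjamini and Hochberg's method over all 18394 tests, 0 of the 7 had an adjusted p under 0.05, against 0% of all tested probe sets, and the lowest adjusted p among them was 0.796. Without adjustment, 0 of the 7 had a limma p under 0.05, against 5.91% of all (2.21% lower and 3.71% higher in ad libitum dogs). For 0 of the 7 did the groups lie apart without overlap, against 1.44% of all. The 3 genes with lower means, LMF1, SLC27A1 and LPL, had the largest differences in size. Of the 13 probe sets, 11 passed the filter on low values, and those of GPIHBP1 and the third of VLDLR did not.

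**Figure D1:**
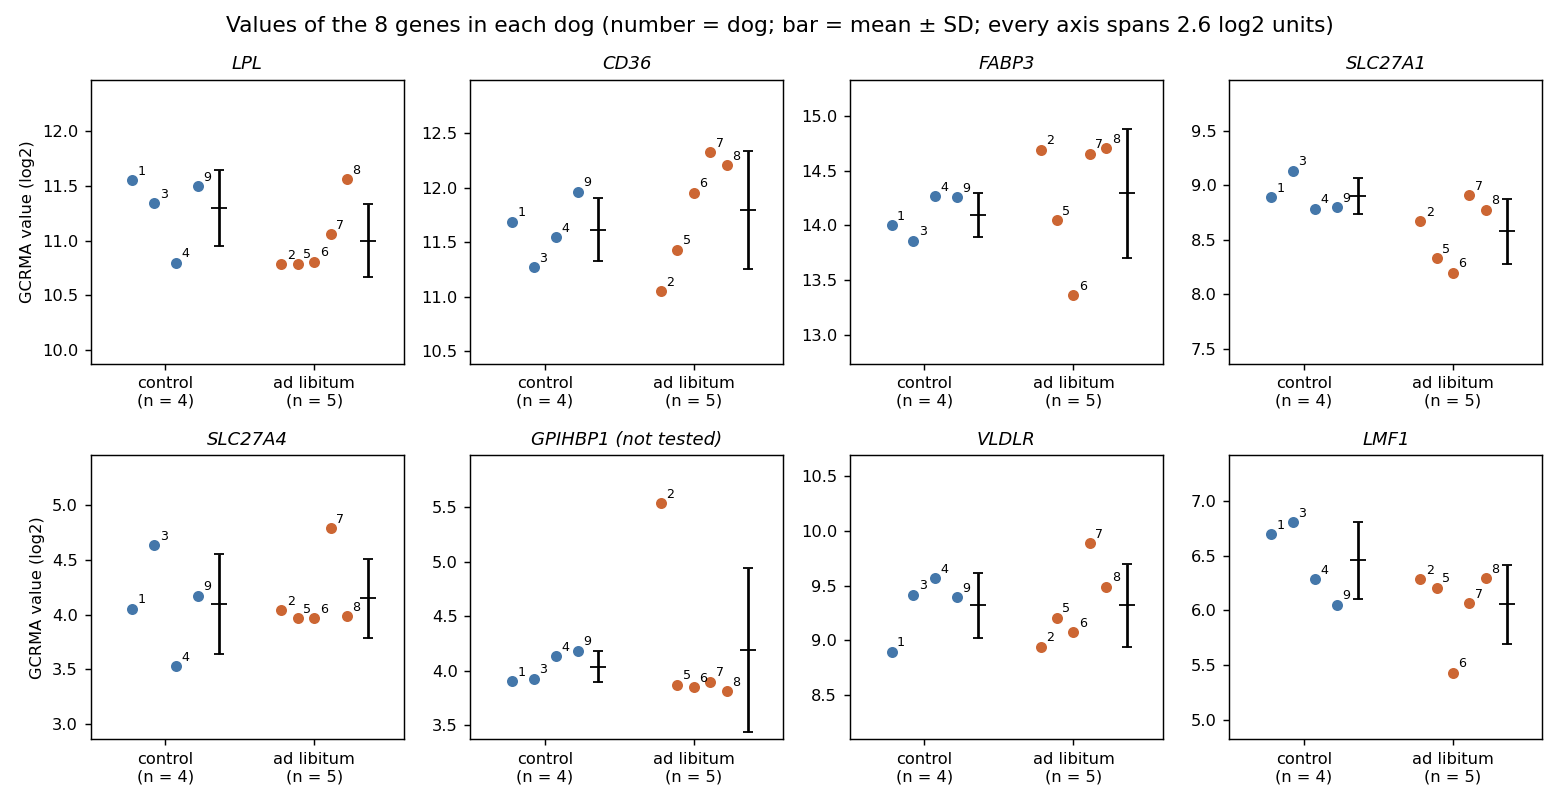
Each panel plots the GCRMA value (log2, vertical axis) of 1 gene in the 4 control dogs (blue) and the 5 ad libitum dogs (orange), with the dog's number beside its point and the mean ± SD as a bar, and every panel spans the same number of log2 units. The groups overlap in every panel, and for GPIHBP1 a single ad libitum dog stands at 5.53 while all others lie at 4.18 or below.

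LPL was measured by 1 probe set. It stood at 10.79, 10.79, 10.81, 11.06 and 11.56 in ad libitum dogs 2, 5, 6, 7 and 8, and at 11.55, 11.34, 10.80 and 11.50 in control dogs 1, 3, 4 and 9. Most ad libitum dogs were thus low and most controls high, but ad libitum dog 8 had the highest value of all and control dog 4 lay with the low dogs. The means were 11.00 ± 0.33 (SD, n = 5) and 11.30 ± 0.34 (SD, n = 4), a log2 difference of -0.30 (SE 0.21), or 0.814 of the control level. With limma the adjusted p was 0.828 and the 95% interval ran from -0.78 to 0.18, and the two-sided exact permutation test over the 126 arrangements of the dogs gave p = 0.206, where the smallest it can give is 0.00794. The interval thus holds both a moderate decrease and no difference. Without control dog 4 the difference was -0.46, and without ad libitum dog 8 it was -0.44.

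The mean of LMF1, which the lipase needs to fold, was also lower. Its values were 6.29, 6.21, 5.43, 6.07 and 6.30 in ad libitum dogs 2, 5, 6, 7 and 8, against 6.70, 6.81, 6.29 and 6.05 in control dogs 1, 3, 4 and 9. All 5 ad libitum dogs lay below the control mean, dog 6 lowest by far, while control dogs 4 and 9 lay within the ad libitum range. The group means were 6.06 ± 0.36 (SD, n = 5) and 6.46 ± 0.35 (SD, n = 4). The log2 difference of -0.40 (SE 0.22) was the largest in size among the tested genes of the set. It did not pass (adjusted p = 0.796, limma; exact permutation p = 0.175), and its 95% interval was -0.91 to 0.10. Without ad libitum dog 6 the difference was -0.25 and without control dog 9 it was -0.54.

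GPIHBP1, the capillary anchor of the lipase, was near background. Its single probe set read 5.53 in ad libitum dog 2 but 3.87, 3.85, 3.90 and 3.81 in ad libitum dogs 5, 6, 7 and 8, and 3.91, 3.93, 4.13 and 4.18 in control dogs 1, 3, 4 and 9. Only 3 arrays exceeded 4, so it was left out of the main test. Except for dog 2, every ad libitum dog lay below every control dog, in a range where GCRMA values are uncertain. The difference of the means, 0.15, rested on dog 2: without that dog it was -0.18 (adjusted p = 0.628, limma with no filter), and with all dogs and no filter the adjusted p was 0.824. GPIHBP1 is made in endothelial cells, whose markers were present in every dog. Of their 18 genes 15 were tested, among them PECAM1, CDH5 and VWF, with list means of 7.80 to 8.33 in ad libitum and 7.99 to 8.25 in control dogs. Dog 2, with 8.25, was second to dog 8, with 8.33. Of the 15, 8 had higher and 7 lower means in ad libitum dogs, and none passed the test. FLT1, lower by 0.67 (SE 0.17, adjusted p = 0.796, limma), was the only 1 of them without overlap, beside 1.44% of all tested probe sets. The part of endothelial RNA in the value of dog 2 was not tested.

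Of the carriers at the fibre surface, SLC27A1 had the smallest p of the 8 genes. SLC27A1 couples uptake of long-chain fatty acids to their activation and is abundant in muscle. Its representative probe set stood at 8.67, 8.33, 8.20, 8.91 and 8.78 in ad libitum dogs 2, 5, 6, 7 and 8, and at 8.89, 9.13, 8.78 and 8.80 in control dogs 1, 3, 4 and 9. Ad libitum dogs 2, 5, 6 and 8 lay below all 4 controls, dog 8 by a margin that 2 decimals do not show, and dog 7 lay inside the control range. The means were 8.58 ± 0.30 (SD, n = 5) and 8.90 ± 0.16 (SD, n = 4), a log2 difference of -0.32 (SE 0.17), or 0.798 of the control level. Limma gave p = 0.0841 and an adjusted p of 0.796, with a 95% interval of -0.70 to 0.05, and the exact permutation p was 0.111. The other probe sets of SLC27A1 had differences of -0.39 (SE 0.19) and -0.22 (SE 0.25), so all 3 pointed the same way. They share the same dogs and the same transcript and are no separate evidence. Across the 9 dogs, the first of these followed the representative with r = 0.97 and the second with r = 0.76 (exact permutation p = 0.000121 and 0.0220, adjusted over 7 pairs of probe sets 0.000424 and 0.0257). The corresponding Spearman rho were 0.93 and 0.85 (exact permutation p = 0.000750 and 0.00607, adjusted 0.00262 and 0.0142), and r was 0.89 and 0.79 without the 2 dogs farthest from the median.

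SLC27A4, a second FATP, averaged 4.15 in ad libitum and 4.10 in control dogs, close to the filter value of 4. It exceeded 4 on 5 arrays, in a range where GCRMA values are uncertain. It read 4.04, 3.96, 3.97, 4.79 and 3.98 in ad libitum dogs 2, 5, 6, 7 and 8, and 4.05, 4.63, 3.52 and 4.17 in control dogs 1, 3, 4 and 9. A single dog stood high in each group, ad libitum dog 7 and control dog 3, and control dog 4 was the lowest of all. The log2 difference was 0.05 (SE 0.25, adjusted p = 0.979, limma), and its sign turned without ad libitum dog 7 (-0.11) or without control dog 4 (-0.14).

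CD36, the scavenger receptor that takes long-chain fatty acids into muscle, varied more among ad libitum than among control dogs. Ad libitum dogs 2, 5, 6, 7 and 8 had 11.05, 11.43, 11.96, 12.33 and 12.20, and control dogs 1, 3, 4 and 9 had 11.69, 11.27, 11.54 and 11.96. The lowest value of all and the highest pair thus both belonged to ad libitum dogs. The means were 11.79 ± 0.54 (SD, n = 5) and 11.62 ± 0.29 (SD, n = 4), a log2 difference of 0.18 (SE 0.27, adjusted p = 0.927, limma) with a 95% interval of -0.44 to 0.79. It was 0.36 without dog 2 and 0.044 without dog 7.

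FABP3, the fatty acid carrier of the cytosol, showed the same wider spread. The representative probe set gave 14.69, 14.05, 13.36, 14.66 and 14.71 in ad libitum dogs 2, 5, 6, 7 and 8, but only 14.00, 13.86, 14.27 and 14.26 in control dogs 1, 3, 4 and 9. Ad libitum dogs 2, 7 and 8 stood above every control, dog 5 among them and dog 6 below every control. The means were 14.29 ± 0.59 (SD, n = 5) and 14.10 ± 0.20 (SD, n = 4), a log2 difference of 0.20 (SE 0.28, adjusted p = 0.921, limma; exact permutation p = 0.595). Without dog 6 it was 0.43 (adjusted p = 0.903, limma). A second FABP3 probe set differed by 0.19 (SE 0.25) and followed the first across dogs with r = 0.99 (exact permutation p = 5.79e-05, adjusted 0.000405) and rho = 0.93 (exact permutation p = 0.000750, adjusted 0.00262), with r = 0.99 also without the 2 dogs farthest from the median. The spreads of CD36 and FABP3 were not tested against each other between groups.

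VLDLR, the receptor of triglyceride-rich lipoproteins in muscle, heart and fat, had nearly equal means. Ad libitum dogs 2, 5, 6, 7 and 8 stood at 8.94, 9.21, 9.07, 9.89 and 9.49, and control dogs 1, 3, 4 and 9 at 8.89, 9.42, 9.57 and 9.39. Low and high dogs occurred in both groups. The means of 9.32 ± 0.38 (SD, n = 5) and 9.32 ± 0.29 (SD, n = 4) differed by 0.0016 on the log2 scale (SE 0.22, adjusted p = 1.00, limma), with a 95% interval of -0.49 to 0.49. A second VLDLR probe set differed by -0.065 (SE 0.22). The third lay under 4 on all 9 arrays and read 2.77, 2.73, 2.87, 3.96 and 2.79 in ad libitum dogs and 2.79, 3.13, 3.01 and 2.81 in control dogs, in the same order of dogs. Dog 7 was the highest of all 9 dogs by each of the 3 probe sets. The second probe set followed the first with r = 0.90 (exact permutation p = 0.00121, adjusted 0.00282) and rho = 0.82 (exact permutation p = 0.0108, adjusted 0.0188), and with r = 0.76 without the 2 dogs farthest from the median.

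**Figure D2:**
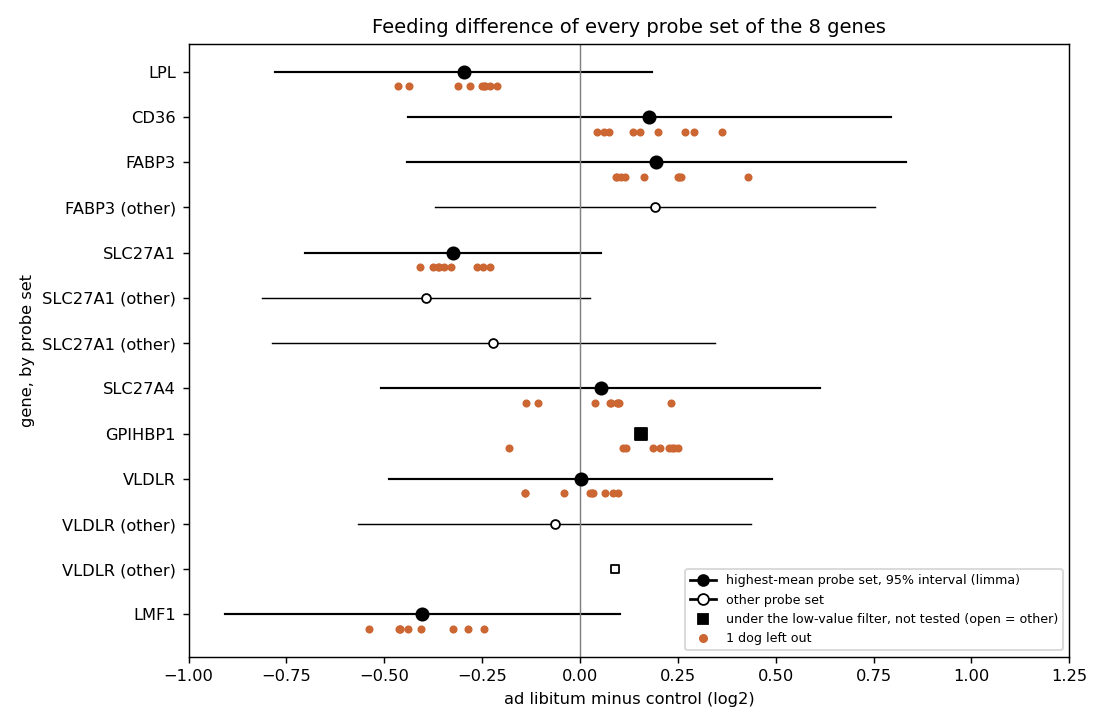
Points give the log2 difference, ad libitum minus control (horizontal axis), of every probe set of the 8 genes, with the 95% interval of the limma fit as a line; filled points are the highest-mean probe sets, squares those under the filter, and small orange points the difference with 1 dog left out. All 11 intervals span 0, from the lowest bound of -0.91 for LMF1 to the highest of 0.83 for FABP3.

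Values of different probe sets cannot be ranked against each other, but how the genes varied together over the dogs can be described. Among the 21 pairs of the 7 tested genes, 18 correlated positively over the 9 dogs, and r ran from -0.45 (CD36 and LMF1) to 0.76 (SLC27A1 and LMF1). None passed adjustment over the 21 pairs (lowest adjusted exact permutation p = 0.322 for r and 0.449 for rho). For SLC27A1 and LMF1, r = 0.76 (exact permutation p = 0.0153, adjusted 0.322) stood beside rho = 0.49 (exact permutation p = 0.187, adjusted 0.729). It was 0.63 (exact permutation p = 0.136) without ad libitum dogs 5 and 6, the farthest from the median of SLC27A1. For LPL and SLC27A1 r was 0.60 (exact permutation p = 0.0956, adjusted 0.588) and rho 0.48 (exact permutation p = 0.194, adjusted 0.729), or r = 0.64 (exact permutation p = 0.124) without dogs 1 and 8. As deviations from the group means, 19 of 21 pairs were positive and again none passed (lowest adjusted p = 0.583, exact permutation within groups). Within each group alone there are too few dogs for a correlation.

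**Figure D3:**
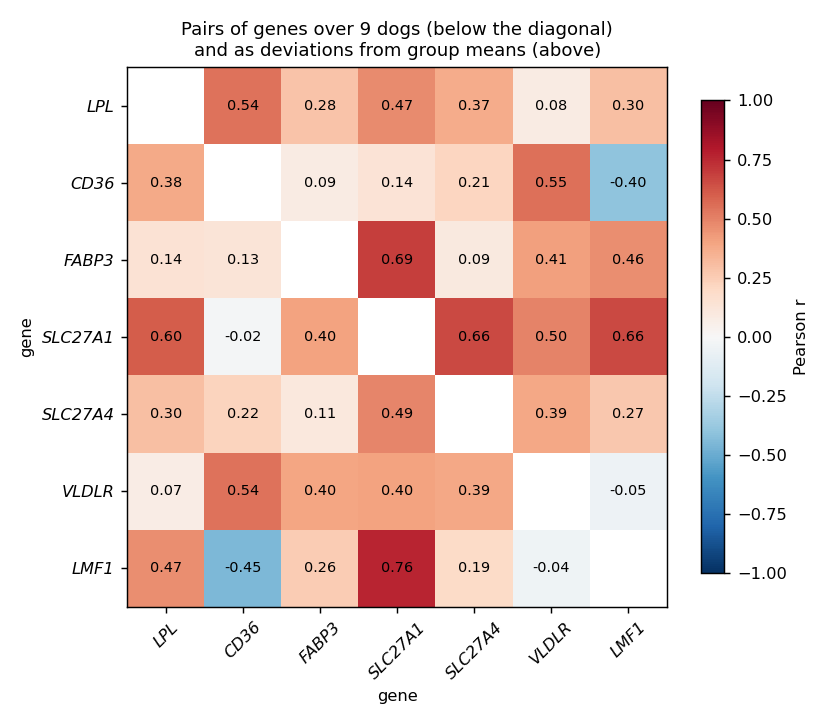
Each cell gives Pearson's r of 2 genes, by colour and number, over the values of all 9 dogs (below the diagonal) and over deviations from the group means (above it). SLC27A1 and LMF1 have the highest value below the diagonal, 0.76, and CD36 and LMF1 the lowest, -0.45.

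The genes most like each member over the 9 dogs were named by Pearson's r among 7527 other tested genes, as a description with no test, since the highest of so many values is high by selection. For LPL these were YPEL2 (r = 0.91), RDX, a linker of actin to the membrane (r = 0.91), and LOC491346 (r = 0.90). For CD36 they were ANKMY2 (r = 0.99), the Golgi GTPase RAB6A (r = 0.98) and TRNT1, which adds the CCA end to transfer RNA (r = 0.96). MCF2L, the folate transporter SLC46A1 and COQ5, of coenzyme Q synthesis, were the nearest to FABP3, at r = 0.92, 0.88 and 0.85. FAM234A, GPS1 and ZER1 were nearest to SLC27A1, at r = 0.97, 0.96 and 0.95, and PEX6, COG8 and C6H7orf26 to SLC27A4, at r = 0.98, 0.95 and 0.94. USP30, a deubiquitinase of mitochondria, CGRRF1 and the nuclease subunit MUS81 were nearest to VLDLR, at r = 0.92, 0.92 and 0.91. MEF2A, a transcription factor of muscle, HEMK1 and BNIP1 were nearest to LMF1, at r = 0.93, 0.91 and 0.91. No member's nearest genes were shared with another member.

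None of the partners of LPL outside the set passed the test either. A list of 24 genes for maturation, transport and inhibition of the lipase had 11 tested members, of which 0 passed in either direction, 8 had higher and 3 lower means, and the median log2 difference was 0.15, beside -0.0021 over 7534 genes. Of these, 3 had an unadjusted limma p under 0.05, all higher, where 3.71% of all tested probe sets did. With 1 dog left out this count ran from 1, in 6 of 9 cases, to 4, without ad libitum dog 7. With no filter on low values the median over 21 genes was 0.060, and 1 had such a p. ANGPTL4, a secreted protein that inactivates lipoprotein lipase, stood at 8.24, 7.10, 8.40, 9.05 and 8.00 in ad libitum dogs 2, 5, 6, 7 and 8 and at 7.54, 6.70, 5.87 and 6.80 in control dogs 1, 3, 4 and 9. Dog 5 was the only ad libitum dog not above all controls. The log2 difference of ANGPTL4 was 1.43 (SE 0.41, adjusted p = 0.796, limma), with 0.59 to 1.77 over its 3 probe sets. APOE, a ligand of lipoprotein receptors, differed by 1.91 (SE 0.83) at its highest probe set but by 0.091 at another. Perlecan (HSPG2), a heparan sulfate proteoglycan, differed by 0.78 (SE 0.34), the convertase PCSK5 by 0.97 (SE 0.62), and APOC3, an inhibitor of the lipase, by -0.31 (SE 0.26), or -0.11 without control dog 4. The 4 probe sets of APOC3 differed by -0.45 to -0.014. Their lowest unadjusted limma p, 0.0484, was not that of the highest-mean probe set, which alone entered the count above. SORT1 differed by 0.28 (SE 0.36), and SEL1L, PCSK7, SDC4, LMF2 and FURIN by -0.17 to 0.15. FURIN was nearly constant in ad libitum dogs, at 4.98 (SD 0.0079).

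Beside VLDLR, a list of 23 lipoprotein receptors and genes of remnant uptake had 13 tested members, 11 with higher and 2 with lower means and a median log2 difference of 0.51. None passed in either direction, and 4 had an unadjusted limma p under 0.05, all higher, where 3.71% of all tested probe sets did. With 1 dog left out this count ran from 2, without control dog 3 or ad libitum dog 6, to 8, without ad libitum dog 7. LRPAP1, the chaperone of VLDLR and related receptors, differed by 0.51 (SE 0.15, adjusted p = 0.796, limma), and all 5 ad libitum dogs (7.83 to 8.38) lay above all 4 controls (7.23 to 7.80), though the receptor's own means were level. It was the only 1 of the 13 without overlap, beside 1.44% of all tested probe sets. The sorting receptor SORL1 differed by 1.07 (SE 0.37), with 0.40 to 1.40 over its 3 probe sets, the scavenger receptor STAB1 by 1.18 (SE 0.50), clusterin (CLU) by 1.52 (SE 0.66) and the lysosomal cholesterol carrier NPC2 by 0.61 (SE 0.27), or 0.37 without ad libitum dog 5. STAB1 averaged 3.69 in control dogs, and it passed the filter only through the group where it was high, so its p supports nothing. It is nonetheless counted among the 4 with a low p, among the 11 with higher means and in the list median, which are to be read with that limit. Macrophage markers also had higher means, though none passed: 9 of 15 were tested, all 9 higher in ad libitum dogs. Of these, CD163 and CD86 averaged 3.83 and 3.47 in control dogs and could not have passed the filter on control dogs alone. CD14 was nearly constant in control dogs, at 4.63 (SD 0.0037). The direction of these markers supports nothing, and the count of 9 and the list mean are to be read with that limit. The macrophage list mean lay between 4.85 and 7.75 in ad libitum and between 4.76 and 5.48 in control dogs. CD68, CSF1R, AIF1, TYROBP, FCER1G and MSR1 did not pass the filter. Of the fibroblast markers 13 of 14 were tested, all 13 with higher means and none past the test, and list means of 8.11 to 11.53 in ad libitum and 8.01 to 9.22 in control dogs. Ad libitum dog 7 was the lowest of its group by both lists. The part of these cells in the differences of the receptors, APOE and HSPG2 was not tested.

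Genes that handle fatty acids beside CD36, SLC27A1, SLC27A4 and FABP3 were about evenly split. Of 34 such genes 22 were tested, 10 with higher and 12 with lower means and a median log2 difference of -0.057, none past the test. The only one with an unadjusted limma p under 0.05 was ACSL6, an acyl-CoA synthetase, at -0.56 (SE 0.25). Its 2 probe sets differed by -0.73 to -0.56. With 1 dog left out, between 0 and 5 genes of this list had such a p, 5 without ad libitum dog 8. The caveola genes of muscle, CAV3 and CAVIN4, differed by -0.42 (SE 0.20) and -0.46 (SE 0.21), and the more widespread CAV1 by 0.14 (SE 0.17), or 0.044 without ad libitum dog 8. FABP4, the fatty acid binding protein of adipocytes, differed by 0.70 (SE 0.36), unlike FABP5 with -0.29 (SE 0.15) and a second FABP5 probe set at 0.14. ACSL1, the main acyl-CoA synthetase of muscle and fat, differed by 0.37 (SE 0.25).

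A list of transcription factors and coactivators of lipid uptake showed no common direction among its tested genes. Of 22 such genes 14 were tested, 7 with higher and 7 with lower means, a median log2 difference of -0.0036 and none past the test. None of their representative probe sets had an unadjusted limma p under 0.05, but another probe set of PPARGC1A, at -0.38 (SE 0.15), did. With 1 dog left out the count ran from 0 to 2, 2 without control dog 4 or ad libitum dog 7. FOXO3 differed by -0.38 (SE 0.20), RXRG by 0.42 (SE 0.25) and PPARG, the receptor that drives adipocyte differentiation, by 0.60 (SE 0.41). The coactivators PPARGC1A and PPARGC1B differed by -0.28 (SE 0.19) and -0.23 (SE 0.20), with -0.54 to -0.28 over the 3 probe sets of the former. Without ad libitum dog 6 PPARGC1A differed by -0.17, and without control dog 3 PPARGC1B differed by -0.035. PPARD, the isoform prominent in muscle, averaged 2.23 in ad libitum and 2.24 in control dogs and was not tested.

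**Figure D4:**
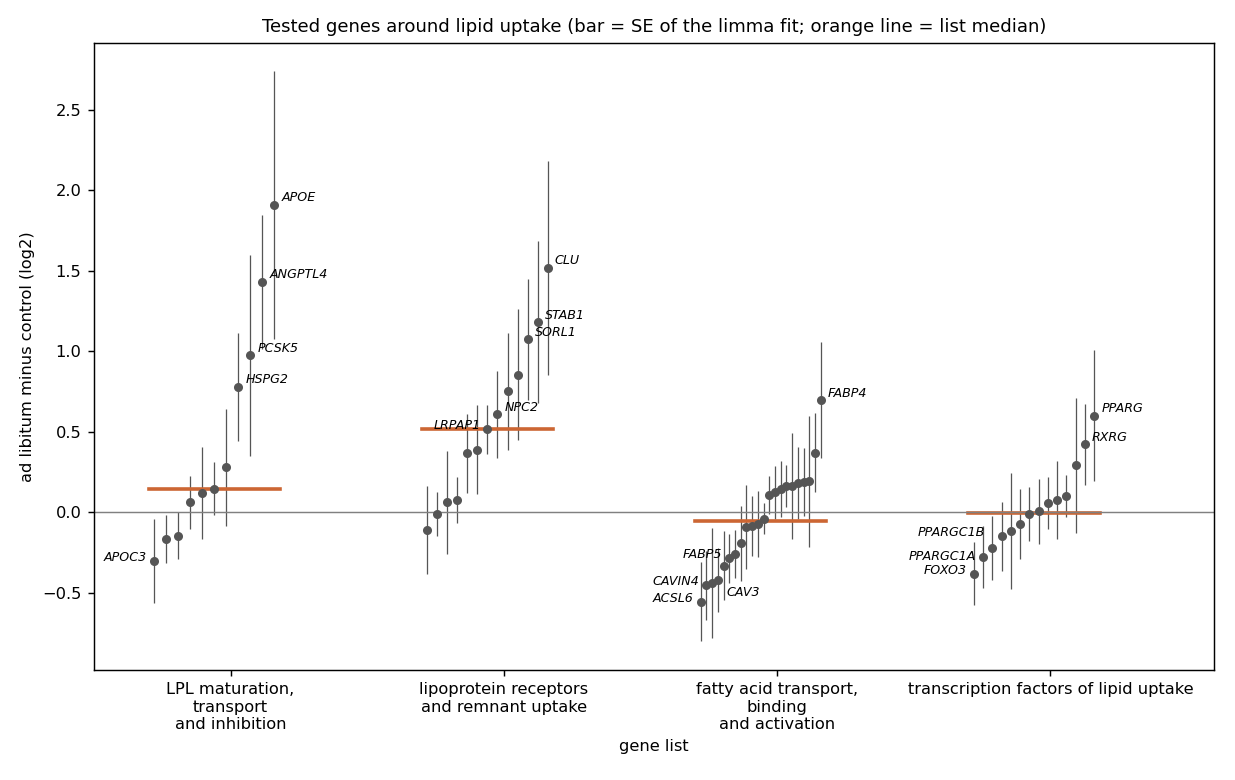
Every tested gene of the 4 lists around lipid uptake is a point at its log2 difference, ad libitum minus control (vertical axis), with the standard error of the limma fit as a bar, sorted within its list (horizontal axis), and an orange line marks the list median. The medians are 0.15, 0.51, -0.057 and -0.0036 from left to right, and APOE, CLU and ANGPTL4 lie highest.

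Muscle holds fat cells and macrophages too, and LPL, CD36 and VLDLR are also made there. The adipocyte list had 15 of 17 genes tested, 14 of them with higher means in ad libitum dogs and none past the test. LEP, higher by 2.41 (SE 0.57, adjusted p = 0.796, limma), was the only 1 without overlap, beside 1.44% of all tested probe sets. The list mean lay between 7.79 and 9.65 in ad libitum and between 7.18 and 8.69 in control dogs. It holds PCK1, with an SD of 3.02 in control dogs, and RETN, which averaged 3.99 in them. Relations without PCK1 and RETN were not tested. Over the dogs, r with the adipocyte mean was below 0 for all 7 tested genes, from -0.73 for VLDLR to -0.059 for FABP3, whose rho was 0.050. Taken as deviations from the group means, r was above 0 for LPL (0.16) and LMF1 (0.022) and below 0 for the others. VLDLR was lower where adipocyte markers were higher, with r = -0.73 (exact permutation p = 0.0277, adjusted 0.485 over 35 relations) and rho = -0.68 (exact permutation p = 0.0503, adjusted 0.440). As deviations from the group means the correlation was -0.94 (exact permutation within groups, p = 0.000347, the smallest these permutations can give, adjusted 0.0122). Without control dogs 3 and 4, the farthest from the median of the adipocyte mean, r was -0.78 (exact permutation p = 0.0397). With the adipocyte mean as a covariate, the feeding difference of VLDLR was 0.47 (SE 0.15, adjusted p = 1.00, limma) and that of SLC27A1 was -0.17 (SE 0.21). The covariate itself averaged 8.94 in ad libitum and 7.95 in control dogs. With 9 dogs, feeding and adipocyte markers thus cannot be told apart in these values.

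SLC27A1 was lower in the dogs with higher macrophage markers. The rank correlation was rho = -0.93 (exact permutation p = 0.000750, adjusted 0.0262) and r was -0.85 (exact permutation p = 0.00416, adjusted 0.146). As deviations from the group means r was -0.77 (exact permutation within groups, p = 0.0444, adjusted 0.778), and without ad libitum dogs 5 and 6, the most extreme in macrophage markers, it was -0.69 over the other 7 dogs (exact permutation p = 0.0740). The macrophage mean holds CD163 and CD86, which averaged 3.83 and 3.47 in control dogs, under the filter value of 4. In ad libitum dogs they averaged 5.25 and 4.37. CD14, also in the mean, was nearly constant in control dogs, at 4.63 (SD 0.0037). Macrophage markers above 4 on fewer than 4 arrays were left out by the filter. CSF1R and TYROBP were among them, with averages of 4.94 and 4.74 in ad libitum dogs and 3.58 and 3.12 in control dogs. The relation without CD163, CD86 and CD14 was not tested. For LPL and ANGPTL4, r was -0.060 (exact permutation p = 0.870, adjusted 0.906) and rho was -0.050 (exact permutation p = 0.912, adjusted 0.967). This r was -0.39 without dogs 4 and 7 and 0.47 as deviations from the group means, so no direction can be given. Of the 35 relations, 7 genes with 4 marker means and with ANGPTL4, 0 passed adjustment by r over the values of all 9 dogs, 1 passed by rho (SLC27A1 with macrophage markers) and 1 as deviations from the group means (VLDLR with adipocyte markers). The relations were added after the values of the dogs had been seen. Markers of fast fibres, 12 of 13 tested, all had lower means in ad libitum dogs, MYL1 by less than 0.01, with list means of 13.14 to 14.47 against 14.07 to 14.54. Markers of slow fibres, 9 of 12 tested, all had higher means, with list means of 13.88 to 14.38 against 13.84 to 14.24. None of either list had an unadjusted limma p under 0.05. The part of other cell types and of fibre types in the members' values was not tested beyond these figures.

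**Figure D5:**
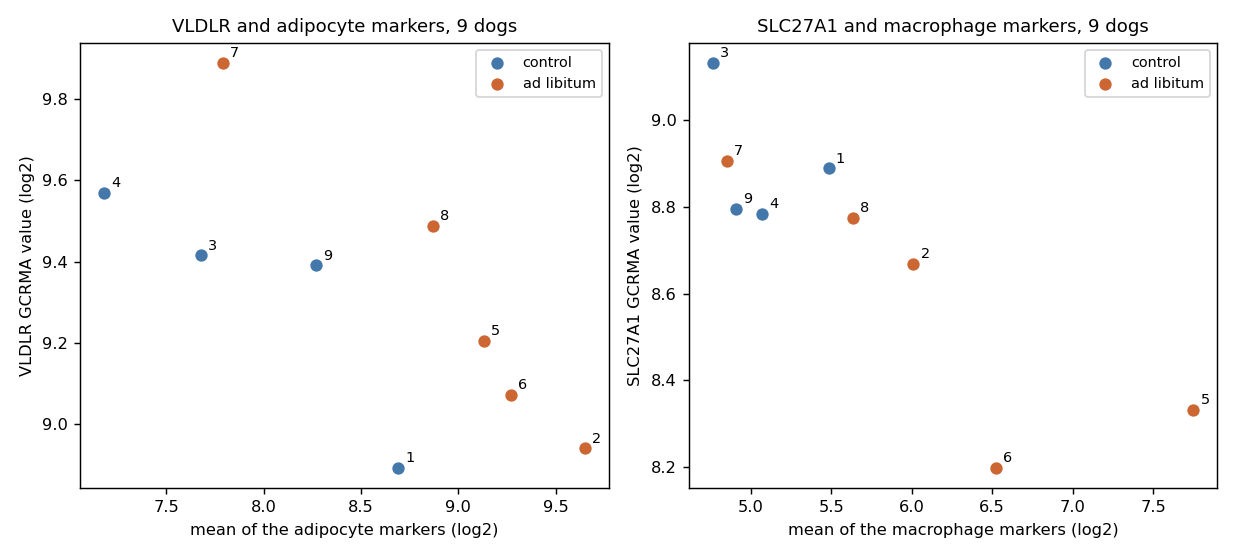
Left, the VLDLR value (log2, vertical axis) against the mean of the adipocyte markers (log2, horizontal axis); right, the SLC27A1 value against the mean of the macrophage markers; each point is 1 of the 9 dogs, numbered, with control dogs in blue and ad libitum dogs in orange. VLDLR falls from 9.89 in dog 7 to 8.94 in dog 2 among ad libitum dogs as adipocyte markers go from 7.79 to 9.65, and SLC27A1 is lowest, at 8.20 and 8.33, in dogs 6 and 5, which have the highest macrophage means.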

How the data were processed

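Total RNA of 9 muscle samples was extracted with Trizol, turned into biotin-labelled cRNA by 3' amplification and hybridised to 1 Affymetrix canine array per dog, per the labels' protocols. The authors deposited values summarised by GCRMA, as the submitters' processing notes name it without a version, and these are treated here as log2, a base judged from their spread and not stated. GCRMA corrects background by probe sequence and equalises array distributions, so a shift of most transcripts in a group would not show, and low values are uncertain. Depth does not apply to arrays. Symbols came from the platform annotation of 2016 (29264 of 43035 probe sets had 1 symbol, 439 several, 13332 none here); 27690 were found in the UU_Cfam_GSD_1.0 gene table by Entrez ID, and 0 changed.

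After 111 control probe sets were left out, limma 3.58.1 in R 4.3.3 was fitted (lmFit and eBayes, no covariate, two-sided, Benjamini-Hochberg over 18394 tested probe sets). Its residual and prior degrees of freedom were 7 and 2.32. Exact permutation tests and correlations were computed in Python 3.11.15. Both were tested on simulated data. Replicate numbers are the animal numbers of the labels, and the groups share none.

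The leave-one-out values of GPIHBP1 with no filter and the relations to markers and ANGPTL4 were added after seeing the data. The members and gene lists were chosen with earlier results of these data known. From each list the 5 tested genes with the lowest p were named, together with ANGPTL4, FABP4, FABP5, ACSL1, PPARD, PPARGC1A, CAV1 and APOE, and the 3 genes with the highest r to each member. Alternatives were other filters, scalings, eBayes settings, array weights, marker covariates, probe sets, and leaving out each dog.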

Additional observations from a re-analysis of the deposited data

Results flagged for a closer look

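In 35 probe sets of the members and named list genes, 70 groups of dogs were examined for a dog far from the rest of its group, and 9 were marked where chance marks about 1 in 20. Of the members, ad libitum dog 2 stood at 5.53 for GPIHBP1 where the next dog of its group had 3.90. Ad libitum dog 7 was high for SLC27A4, at 4.79 against 4.04 in the next dog, for the third SLC27A1 probe set, at 6.72 against 5.97, and for the VLDLR probe set under the filter, at 3.96 against 2.87. Ad libitum dog 6 was low for LMF1, at 5.43 against 6.07. Of the list genes, FABP4 was low in ad libitum dog 7, at 12.61 against 13.68, the same dog whose adipocyte marker mean, 7.79, was the lowest of its group. PPARGC1B was high in control dog 3, at 8.12 against 7.37, and SORL1 and STAB1 were high in control dog 1, at 5.80 against 4.84 and at 4.15 against 3.58.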

How the results depend on the processing

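No alternative brought a member past an adjusted p of 0.05: over 172 alternative values of the 8 differences the lowest adjusted limma p was 0.383, for SLC27A1 without ad libitum dog 7, and 159 kept their sign while 13 changed it. LPL, LMF1, SLC27A1 and CD36 kept their sign throughout. VLDLR turned negative with arrays centred on their median (-0.041), cyclic loess (-0.0047), array weights (-0.029), the endothelial mean as covariate (-0.022) and its second probe set (-0.065). FABP3 turned with array weights (-0.045) and SLC27A4 with values below 4 raised to 4 (-0.049). With 1 dog left out, VLDLR ran from -0.14 to 0.096, SLC27A4 from -0.14 to 0.23, LPL from -0.46 to -0.21, SLC27A1 from -0.41 to -0.23, LMF1 from -0.54 to -0.25, CD36 from 0.044 to 0.36, FABP3 from 0.092 to 0.43 and GPIHBP1 from -0.18 (without ad libitum dog 2) to 0.25. The cause was not tested. With the adipocyte mean as covariate, CD36 differed by 0.44 (SE 0.34), FABP3 by 0.38 (SE 0.37), SLC27A4 by 0.24 (SE 0.32) and VLDLR by 0.47 (SE 0.15). With the same covariate LPL differed by -0.38 (SE 0.29), LMF1 by -0.41 (SE 0.30) and SLC27A1 by -0.17 (SE 0.21). The adipocyte mean itself was higher in ad libitum dogs, so feeding and adipocyte markers cannot be told apart in these values. Over all probe sets limma called 0 in the main setting, 1 with values below 4 raised to 4, 0 to 1 with a dog left out (1 without ad libitum dog 8), and 1088 had an unadjusted p under 0.05. List medians ran, with a dog left out, from 0.13 to 0.24 for lipase partners, 0.40 to 0.59 for receptors, -0.085 to 0.040 for fatty acid handling and -0.068 to 0.083 for transcription factors. No paired analysis was possible because the groups share no replicate number.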
